A study of Bos grunniens x Bos taurus and Bos grunniens with 6 samples.

Results

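Genes that set the pH, the membrane voltage and the sodium and calcium balance of sperm were followed in testis RNA-seq of yak and of cattle-yak, their sterile hybrid with cattle. They are ADCY10, SLC9C1, HVCN1, SLC26A8, KCNU1, LRRC52, ATP1A4, ATP2B4 and TMC7, and they were taken by gene symbol from a table that lists 18918 genes. All 9 symbols were found, each on 1 row, and 0 were absent. The cattle-yak animals (TES5, TES6 and TES7) were F1 males of a Jersey cattle sire and a Gannan yak dam, and the yak animals (Yak8, Yak9 and Yak10) were Gannan males. All 6 animals were 4 years old, and each library was made from the testis of 1 animal. The groups were kept in different counties, and by the study's methods the cattle-yak were castrated and the yak euthanized, although the sample labels give castration for both. Species, county and way of collection therefore cannot be told apart in any comparison given here.

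A sperm cell makes almost no new protein after it leaves the testis, so its ion transporters are laid down during spermatid development. Bicarbonate switches on the soluble adenylyl cyclase ADCY10, whose cAMP drives protein kinase A and the beat of the tail. Exchange of sodium for protons by SLC9C1 raises the internal pH, the SLO3 channel (KCNU1 with its partner LRRC52) then hyperpolarizes the membrane, and the sodium gradient behind the exchange is kept by the sodium-potassium pump with the alpha subunit ATP1A4. High pH also opens the calcium channel CatSper, and the pump ATP2B4 removes calcium again.

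The values were FPKM, fragments normalised to the length of the gene model and to the fragments on genes in the library. Whole fragments per gene could be recovered from them, and the depth they were normalised to was 11175100 to 11834987 fragments on genes per cattle-yak library, against 12991641 to 13136129 per yak library. The 15042 genes whose FPKM averaged 0.5 or more were tested with limma after a log2(FPKM + 1) transformation. A call needed an adjusted p (Benjamini-Hochberg) under 0.05 and a log2 fold change beyond 1 in either direction. Because of the added 1, fold changes of weakly expressed genes come out too small. With the FPKM as deposited 3136 tested genes (20.8%) were called lower in cattle-yak and 5023 (33.4%) higher, and the median log2 fold change of all tested genes was 0.51. With median-of-ratios size factors, which bring that median to 0.01, 4173 genes (27.7%) were lower and 2655 (17.7%) higher. The spermatid markers were nearly gone from cattle-yak. All 7 tested markers of round spermatids and all 7 of elongating spermatids were called lower, with 1.31% and 0.436% of the summed yak FPKM left. The spermatocyte markers kept 70.4% of their summed FPKM, while those of spermatogonia, Sertoli cells and Leydig cells were at 435%, 478% and 296% of the yak level. In whole tissue, fewer cells of a type and less RNA per cell cannot be told apart.

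Of the 9 genes 6 were called lower in cattle-yak (ADCY10, SLC9C1, SLC26A8, KCNU1, LRRC52 and ATP1A4) and 2 higher (HVCN1 and ATP2B4), beside 20.8% and 33.4% of all tested genes. TMC7 was lower by less than the fold-change threshold. The median log2 fold change of the 9 genes was −3.07, against 0.51 over all tested genes. Animals of both groups were separate for each of the 9 genes, as was the case for 84.1% of the tested genes, so that the lack of overlap alone says little. The 2 higher calls were lost with median-of-ratios size factors, and TMC7 was then called lower, which gave 7 lower and 0 higher.

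**Figure D1:**
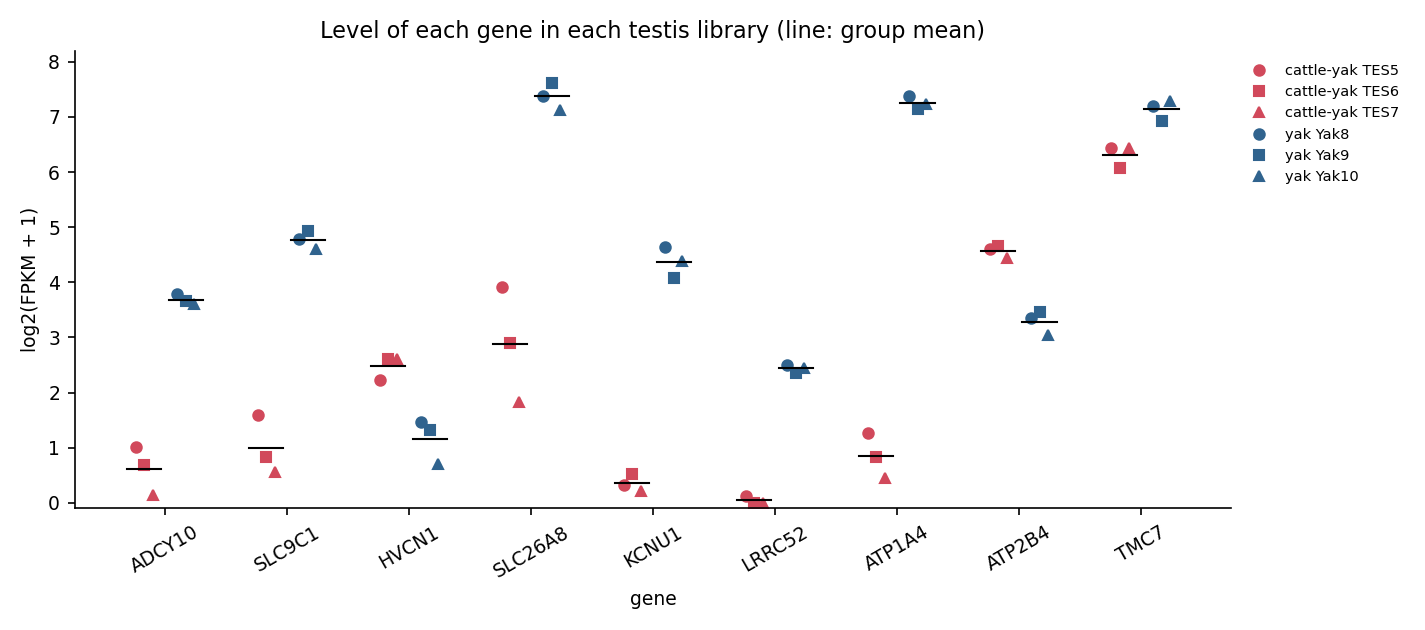
The plot gives log2(FPKM + 1) of the 9 genes in each of the 6 libraries, with cattle-yak in red, yak in blue and a black line at each group mean. For 7 genes the cattle-yak points lie below the yak points, for HVCN1 and ATP2B4 they lie above, and TMC7 shows the smallest distance between the groups.

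ADCY10 (ENSBGRG00000007654), the bicarbonate-activated adenylyl cyclase, had 1.02, 0.616 and 0.0963 FPKM in TES5, TES6 and TES7, and 12.7, 11.7 and 11.2 FPKM in Yak8, Yak9 and Yak10. The highest cattle-yak value stayed far below the lowest yak value, and TES7 rested on 6 fragments. The mean was 0.578 ± 0.464 FPKM in cattle-yak against 11.9 ± 0.789 in yak (SD, n = 3 each), with a log2 fold change of −3.07 ± 0.23 (SE; limma, adjusted p = 5.1e-06).

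SLC26A8 (ENSBGRG00000013741) is an anion transporter found at the annulus of the sperm tail and known as a partner of the chloride and bicarbonate channel CFTR. It had the highest mean of the 9 genes in yak, with 165, 196 and 139 FPKM in Yak8, Yak9 and Yak10. ATP1A4 was above it in Yak8 and Yak10, and TMC7 in Yak10. In TES5, TES6 and TES7 SLC26A8 had 14.1, 6.45 and 2.57 FPKM. The groups were widely apart, but the cattle-yak animals also differed among themselves, with TES5 at 5.50 times the level of TES7. The log2 fold change was −4.49 ± 0.45 (SE; limma, adjusted p = 2.7e-05), and its error exceeded that of the other 8 genes.

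SLC9C1 (ENSBGRG00000000555), the sperm sodium-proton exchanger, carries a voltage sensor and a site for cyclic nucleotides. Its level was 2.02, 0.782 and 0.477 FPKM in TES5, TES6 and TES7 and 26.6, 29.4 and 23.3 FPKM in Yak8, Yak9 and Yak10. No cattle-yak animal came near the yak range, and TES5 was again the highest of the 3. SLC9C1 fell by 3.78 ± 0.26 on the log2 scale (SE; limma, adjusted p = 3.4e-06).

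KCNU1 (ENSBGRG00000020595) forms the pore of SLO3, the potassium channel of sperm that opens at high pH. It stood at 0.251, 0.434 and 0.163 FPKM in TES5, TES6 and TES7, which were 11, 18 and 7 fragments, and at 24.1, 15.8 and 19.8 FPKM in Yak8, Yak9 and Yak10. Here TES6 and not TES5 was the highest cattle-yak animal, and the mean was 70.4 times higher in yak. On the log2 scale KCNU1 fell by 4.01 ± 0.18 (SE; limma, adjusted p = 5.2e-07).

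LRRC52 (ENSBGRG00000003288), the leucine-rich repeat protein that shifts the gating of SLO3 to the voltage and pH of sperm, was the least abundant gene in cattle-yak. It had 110, 97 and 104 fragments in Yak8, Yak9 and Yak10 (4.68, 4.14 and 4.47 FPKM) and 2, 0 and 0 in TES5, TES6 and TES7. A floor of 3 fragments corresponds to 0.150 FPKM in TES6 and 0.144 FPKM in TES7. Over the groups 2 fragments stood against 311, which per depth is 0.729% of the yak level with an exact 95% interval of 0.0879% to 2.66%, for counting error only. The fitted log2 fold change was −2.40 ± 0.14 (SE; limma, adjusted p = 1.8e-06), far smaller than this ratio because 1 is added to each FPKM before the logarithm. In yak the level of LRRC52 was 0.194 to 0.262 of that of KCNU1, while in cattle-yak the fragments were too few for such a ratio.

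ATP1A4 (ENSBGRG00000014914), the alpha subunit of the sodium-potassium pump that is used by sperm, had the largest fold change of the 9 genes. The libraries TES5, TES6 and TES7 held 1.40, 0.783 and 0.363 FPKM (51, 27 and 13 fragments), and Yak8, Yak9 and Yak10 held 166, 140 and 150 FPKM (6744, 5648 and 6026 fragments). The yak animals lay close together at 152 ± 13.4 FPKM (SD, n = 3), and the cattle-yak mean was 0.557% of that level. This gave a log2 fold change of −6.41 ± 0.20 (SE; limma, adjusted p = 1.2e-07).

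ATP2B4 (ENSBGRG00000007893), the plasma membrane calcium pump PMCA4, is the main calcium exporter of the sperm tail and is also made in many somatic tissues. It went the other way, with 23.3, 24.2 and 20.7 FPKM in TES5, TES6 and TES7 and 9.20, 10.01 and 7.23 FPKM in Yak8, Yak9 and Yak10. Every cattle-yak animal exceeded every yak animal, by a factor of 2.58 between the means. The log2 fold change was 1.28 ± 0.14 (SE; limma, adjusted p = 5.2e-05), but it was 0.71 and not called with median-of-ratios size factors, and −0.89 when each library was centred on the Sertoli markers.

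HVCN1 (ENSBGRG00000012985) is the voltage-gated proton channel, which releases acid from sperm in some species and serves the respiratory burst of white blood cells. It was the least abundant of the 9 genes in yak, with 1.75, 1.505 and 0.632 FPKM in Yak8, Yak9 and Yak10, and reached 3.68, 5.07 and 5.10 FPKM in TES5, TES6 and TES7. The groups did not overlap, and Yak10, at 10 fragments, stood below the other yak animals. The log2 fold change was 1.32 ± 0.23 (SE; limma, adjusted p = 0.00077), but 0.89 and not called with median-of-ratios size factors, and −0.86 with Sertoli centring.

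PTPRC, the white blood cell marker CD45 and the first gene of the lymphocyte list, moved alongside HVCN1. It had 8.75, 15.6 and 14.1 FPKM in TES5, TES6 and TES7 and 3.77, 4.47 and 1.90 FPKM in Yak8, Yak9 and Yak10, so its lowest value was also in Yak10. HVCN1 amounted to 0.324 to 0.421 of PTPRC in the cattle-yak animals, against 0.334 to 0.465 in the yak animals. The two-sided exact permutation test gave p = 0.8, which with 3 animals a side cannot show that the ratios are equal. This ratio was chosen after the values had been seen, and PTPRC stands on 2 rows of the table, of which the more abundant was used. Of the 7 lymphocyte markers 5 were tested, with 3 called higher and 1 lower, beside 33.4% and 20.8% of all tested genes. The lower one was CD79A, with a log2 fold change of −1.28, and CD3D, with −0.18, was not called. CD79B was at 0 in cattle-yak and at 0.0708, 0.0355 and 0 FPKM in Yak8, Yak9 and Yak10. The sum of the 7 markers ranged from 21.0 to 39.0 FPKM among cattle-yak and from 13.8 to 24.6 FPKM among yak. Of the 6 macrophage markers found, 3 were called higher and 2 lower, beside the same 33.4% and 20.8% of all tested genes. The lower ones were AIF1 and CD14, with log2 fold changes of −3.78 and −1.52. The macrophage sums were 71.9 to 94.7 FPKM in cattle-yak and 97.6 to 116 FPKM in yak. The part of these cells in the HVCN1 result was not tested.

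TMC7 (ENSBGRG00000022000) belongs to the transmembrane channel-like family, whose members TMC1 and TMC2 serve hearing in the inner ear. Its values were 85.3, 66.2 and 85.1 FPKM in TES5, TES6 and TES7 and 146, 121 and 155 FPKM in Yak8, Yak9 and Yak10. All cattle-yak animals lay below all yak animals, but 56.1% of the yak mean was left, which made TMC7 the most abundant of the 9 genes in cattle-yak. The log2 fold change was −0.83 ± 0.14 (SE; limma, adjusted p = 0.00059), with a 95% interval of −1.15 to −0.51 that spans the threshold of −1. With median-of-ratios size factors it was −1.44 and called.

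**Figure D2:**
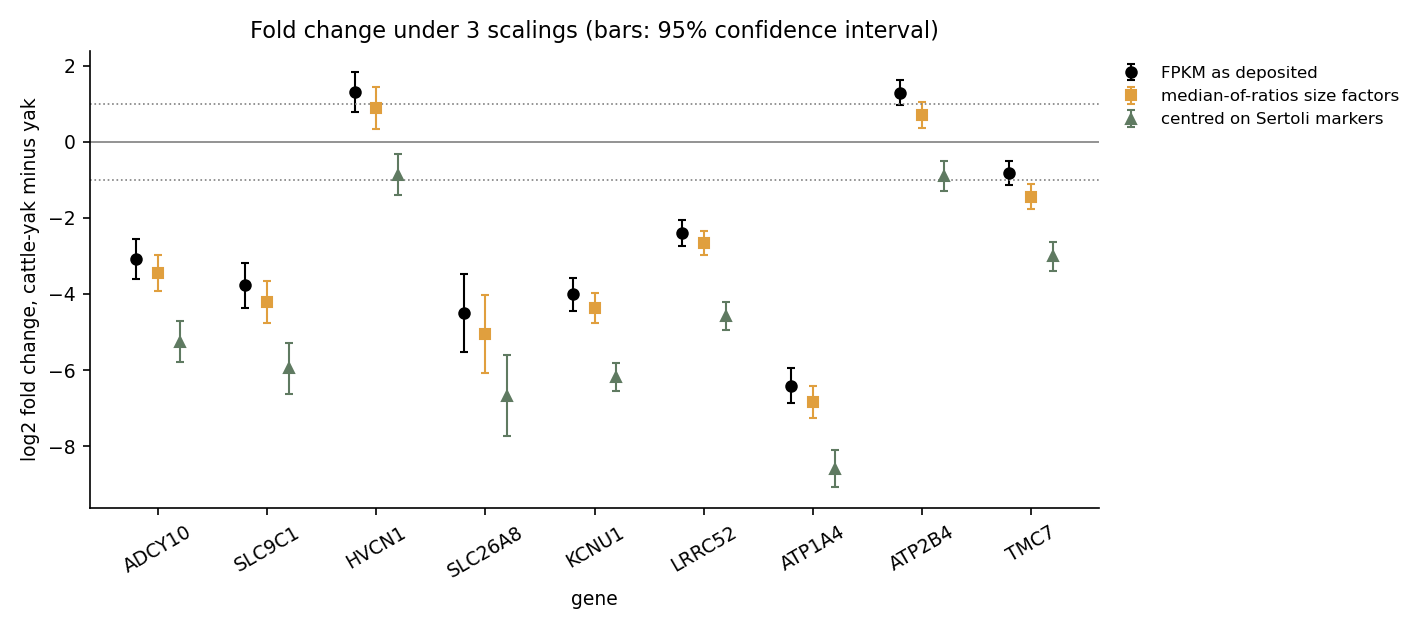
The plot gives the log2 fold change (cattle-yak minus yak) of each gene with its 95% confidence interval for the FPKM as deposited, for median-of-ratios size factors and for centring on the Sertoli markers, with dotted lines at the thresholds. The 6 genes called lower stay below −2 in all 3, while HVCN1 and ATP2B4 are above 0 in the first 2 and turn to −0.86 and −0.89 with Sertoli centring.

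The scaling changed the call of HVCN1, ATP2B4 and TMC7. The other 6 genes were called lower in all 3 scalings, but the size of their change moved, for example from −3.07 to −5.25 for ADCY10 and from −6.41 to −8.59 for ATP1A4 with Sertoli centring. Sertoli centring shifts the median of all tested genes to −1.67, and 72.1% of them are then called lower and 0.239% higher. On that scale HVCN1 and ATP2B4 lay above the median of all genes, as they did with the FPKM as deposited. TMC7, at −3.01, lay below it in each of the 3 scalings.

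Since FPKM is per length, levels of genes of a family can be added within a library, and the share of a gene in its family does not depend on the scaling between libraries. ATP1A4 made up 62.0%, 59.0% and 53.9% of the alpha subunit FPKM of the sodium-potassium pump in Yak8, Yak9 and Yak10, and 0.249%, 0.127% and 0.0647% in TES5, TES6 and TES7. ATP1A4 was thus the larger part of the alpha subunit FPKM in every yak animal and a trace of it in every cattle-yak animal.

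SLC26A8 held 76.6% ± 2.10 of the FPKM of its 10 family genes in yak, against 16.1% ± 11.1 for the hybrids (SD, n = 3 each). The share of ADCY10 among the 10 adenylyl cyclases was 32.7% ± 1.92 in yak, against 1.01% ± 0.842 in cattle-yak (SD, n = 3 each). For SLC9C1 among 13 exchangers it was 23.5% ± 2.79 and 1.36% ± 0.892 (SD, n = 3 each). Each of the 3 genes thus lost most of its place in the family, and SLC26A8 had the widest spread among the cattle-yak animals.

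KCNU1 and LRRC52 held 57.6% and 13.1% of the FPKM of their list of SLO channels and partner subunits in yak, and 2.30% and 0.290% in cattle-yak. ATP2B4 was called higher in level but held a smaller share, 34.1% ± 1.16 of the calcium pump FPKM in cattle-yak against 53.1% ± 5.55 in yak (SD, n = 3 each). ATP2B1, the most abundant other calcium pump, had a log2 fold change of 2.37. TMC7 held 65.2% ± 4.98 of its family in cattle-yak, against 81.4% ± 2.71 in yak (SD, n = 3 each). HVCN1 was compared only with TPTE2, a protein with a related voltage sensor, and held 93.8% of their sum in cattle-yak and 19.3% in yak. All 9 shares separated the groups, and the two-sided exact permutation test returned p = 0.1 for each (adjusted p = 0.1 over the 9), which is the lowest value open to 3 animals a side.

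**Figure D3:**
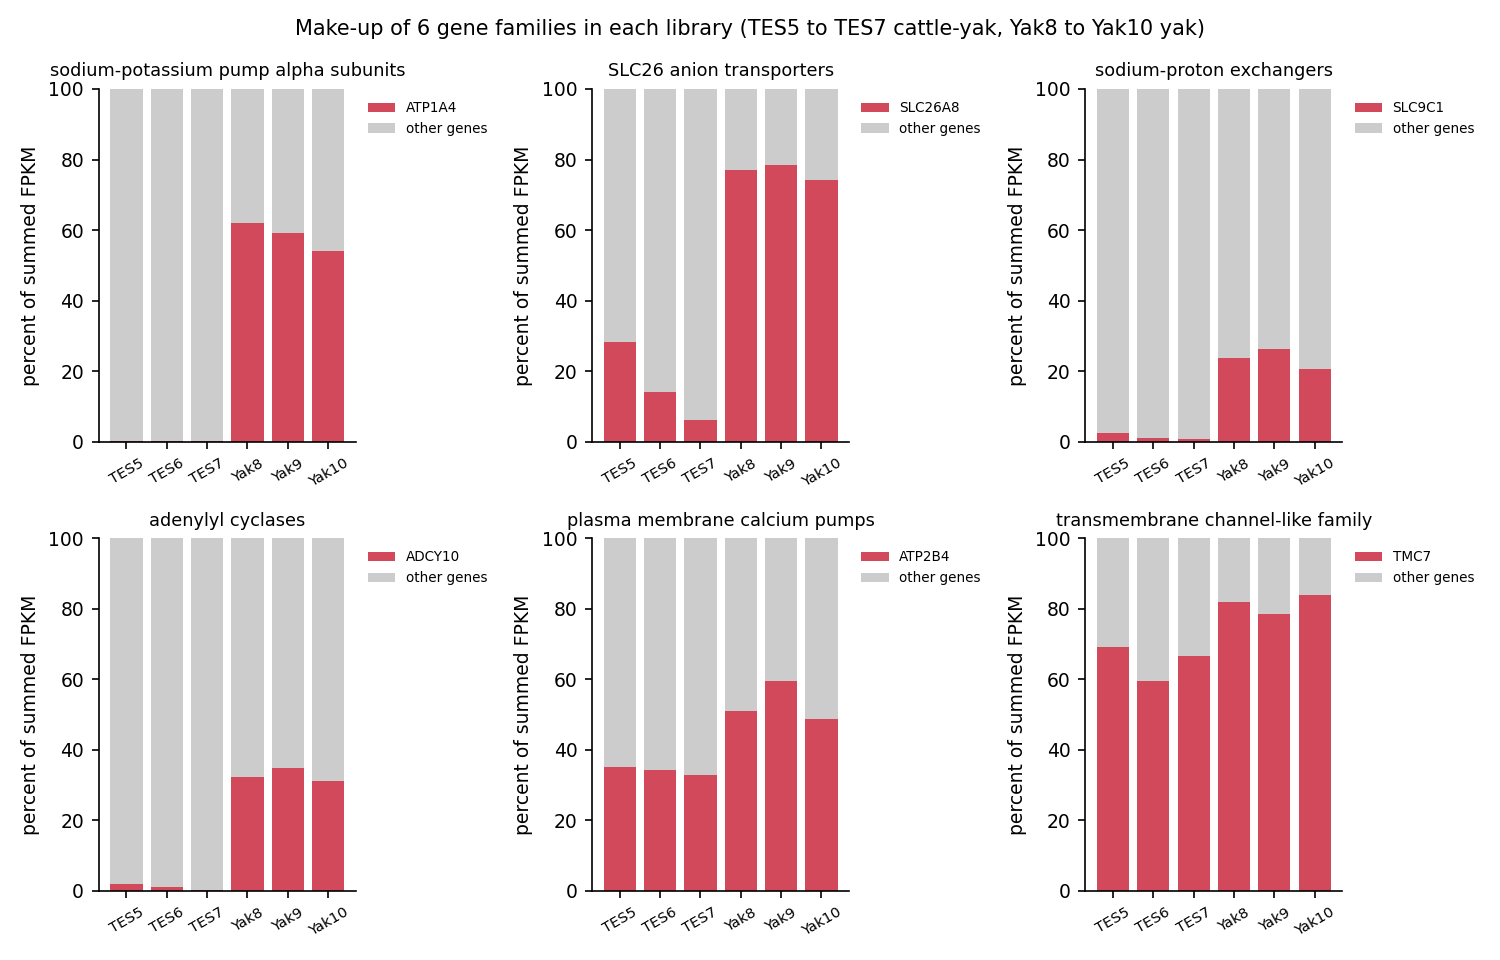
Stacked bars give the percent of the summed FPKM of 6 gene families in each library, with the gene of interest at the bottom in red and the rest of its family in grey. The red share is at most 2.37% in the cattle-yak bars of ATP1A4, SLC9C1 and ADCY10, while TMC7 keeps at least 59.6% of its family in every library.

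The families and partner pathways held 125 further genes, of which 114 were in the table and 92 were tested. Of these 35 were called lower and 30 higher, and 27 were not called, beside 20.8% of all tested genes lower and 33.4% higher. Their median log2 fold change was 0.05, below that of all tested genes at 0.51.

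With the FPKM as deposited, several relatives of the genes with lower levels were called higher. Among the exchangers SLC9A2 rose by 1.94 on the log2 scale. SLC9B1, the most abundant exchanger, and SLC9C2, the closest relative of SLC9C1, were lower, with −3.08 and −3.01. ADCY9, the most abundant of the other cyclases over all 6 libraries but not within yak, rose by 2.51. ADCY5, ADCY6 and ADCY7 rose by 2.34, 1.13 and 1.04, while ADCY1 was called lower with −1.17. SLC9A2, SLC9C2 and ADCY1 each stand on 2 rows of the table, of which the more abundant was used. SLC26A5 and SLC26A11 rose by 1.23 and 1.81, SLC26A6 was called lower with −2.95, and SLC26A2 had −0.45 and was not called. KCNMA1, the calcium-gated relative of KCNU1, had a log2 fold change of −0.37 ± 0.27 (SE; limma, adjusted p = 0.22). Of its tested beta subunits KCNMB1 rose by 1.65, KCNMB2 was called lower with −1.70, and KCNMB4 had 0.77 and was not called. TPTE2 was the relative of HVCN1 that fell, with −2.25. In the family of TMC7, TMC6 rose by 2.27, and TMC5 was called lower with −4.35. The size of these rises depended on the scaling. Of the 30 genes called higher 21 stayed called with median-of-ratios size factors, SLC26A5, ADCY6 and ADCY7 not among them. With Sertoli centring 0 were called higher, beside 0.239% of all tested genes, and 17 went below 0. Among these were SLC9A2, SLC26A5, SLC26A11, ADCY6, ADCY7 and KCNMB1, while ADCY5, ADCY9 and TMC6 stayed above 0. Sertoli centring shifts all genes by the same amount, for TMC4 from 1.04 to −1.14. For such weakly expressed genes the 1 added to each FPKM had already made the rise too small.

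Of the 8 beta and FXYD subunits tested as partners of ATP1A4, 6 were called higher and 1 lower, beside 33.4% and 20.8% of all tested genes. With Sertoli centring 0 were called higher, beside 0.239% of all tested genes. ATP1B1 and FXYD3 had the highest fold changes of the 92 genes, with 3.01 and 2.98 (0.83 and 0.80 with Sertoli centring). ATP1B3, the most abundant beta subunit over all 6 libraries but not within cattle-yak, had 107, 104 and 107 FPKM in TES5, TES6 and TES7 and 188, 190 and 187 FPKM in Yak8, Yak9 and Yak10, with a log2 fold change of −0.82 that was not called.

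Downstream of ADCY10, the arm of protein kinase A had 8 genes called lower and 4 higher among 18 tested, beside 20.8% and 33.4% of all tested genes. AKAP3 and AKAP4, anchors of the kinase in the fibrous sheath of the tail, had the lowest fold changes of the 92 genes, with −6.41 and −6.36. ROPN1, a sheath protein that docks on such anchors and the most abundant gene of this list over all 6 libraries but not within cattle-yak, fell from 1026 to 1229 FPKM in yak to 7.29 to 51.8 FPKM in cattle-yak. For CatSper, which responds to the same alkaline pH, all 11 subunits tested were called lower, with a median log2 fold change of −3.03. CATSPERZ, its most abundant subunit, had −4.50. Among genes that supply bicarbonate and other anions 7 were lower and 5 higher of 16 tested, beside the same 20.8% and 33.4%, and CA3, a carbonic anhydrase and the most abundant of them over all 6 libraries but not within yak, rose by 2.15 (−0.03 with Sertoli centring).

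**Figure D4:**
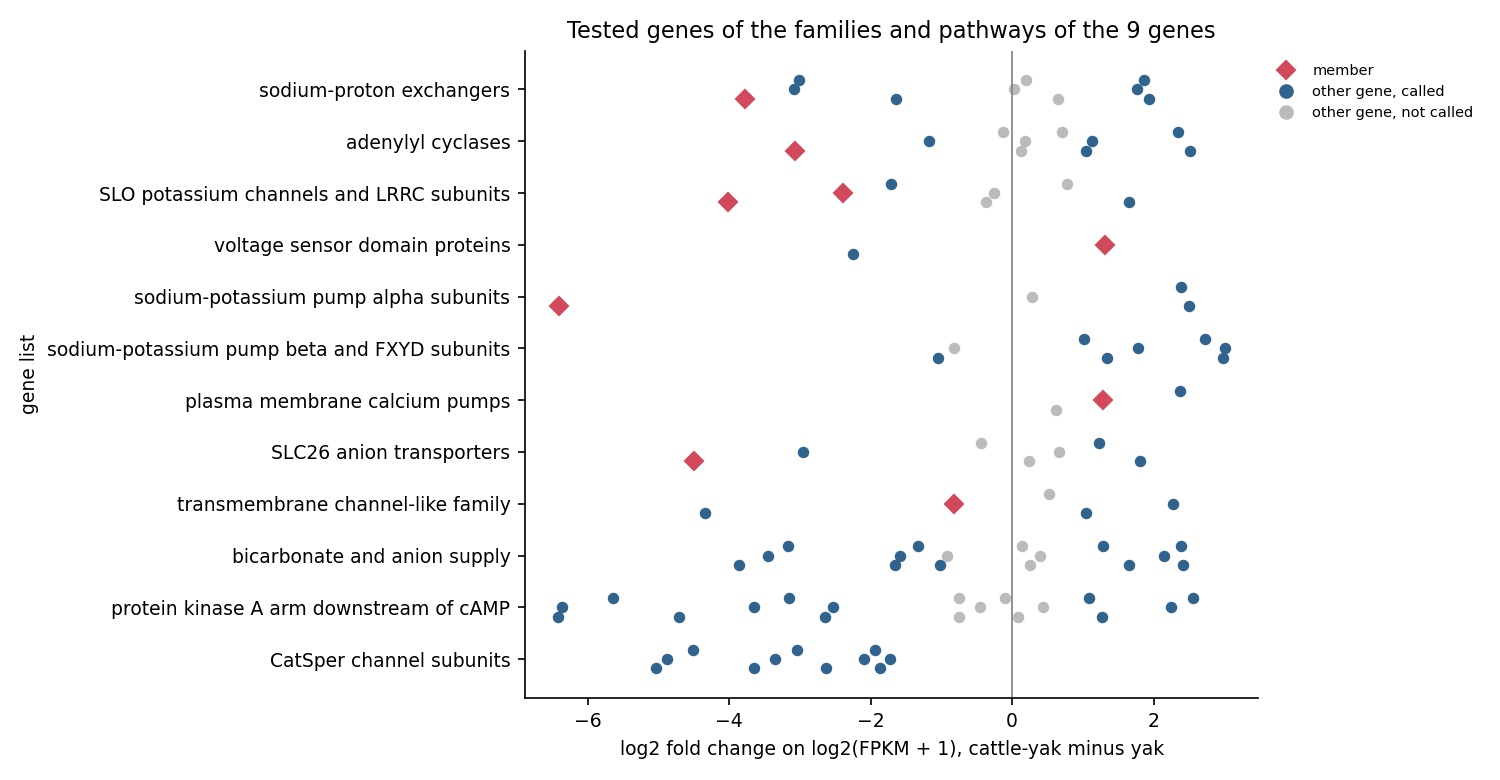
Each point is the log2 fold change of a tested gene on the log2(FPKM + 1) scale, in 12 rows of families and pathways, with the 9 genes as red diamonds, other called genes in blue and genes not called in grey. The CatSper row lies wholly below 0, and ATP1A4 at −6.41 stands apart from its family. Most other rows hold called genes on both sides of 0, a split that depends on the scaling. Of the 30 blue points above 0, 21 stay called higher with median-of-ratios size factors. With Sertoli centring 0 do, beside 0.239% of all tested genes called higher.

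The level left in cattle-yak was taken as a percent of the yak mean. It was 0.557% for ATP1A4, 1.42% for KCNU1, 4.13% for SLC9C1, 4.63% for SLC26A8 and 4.87% for ADCY10, with 0.729% for LRRC52 by fragments. Single animals of these genes overlapped, as with 0.812% for ADCY10 and 0.818% for KCNU1 in TES7, and differences between the genes were not tested. The summed round spermatid markers kept 2.37%, 1.17% and 0.378% in TES5, TES6 and TES7, and the summed elongating spermatid markers 0.795%, 0.330% and 0.182%. ATP1A4 had 0.918%, 0.515% and 0.239% in the same animals, between both marker lists in TES5, TES6 and TES7 alike. SLC26A8, with 8.47%, 3.87% and 1.54%, and SLC9C1, with 7.63%, 2.96% and 1.80%, lay above both lists in each animal. So did ADCY10, with 8.62%, 5.19% and 0.812%. For ATP1A4, SLC26A8, SLC9C1, ADCY10 and both marker lists TES5 was the highest animal and TES7 the lowest, whereas KCNU1 was highest in TES6. The part of the remaining spermatids in these values was not tested. Without TES5 the level left was 2.70% for SLC26A8, 2.38% for SLC9C1 and 3.003% for ADCY10.

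**Figure D5:**
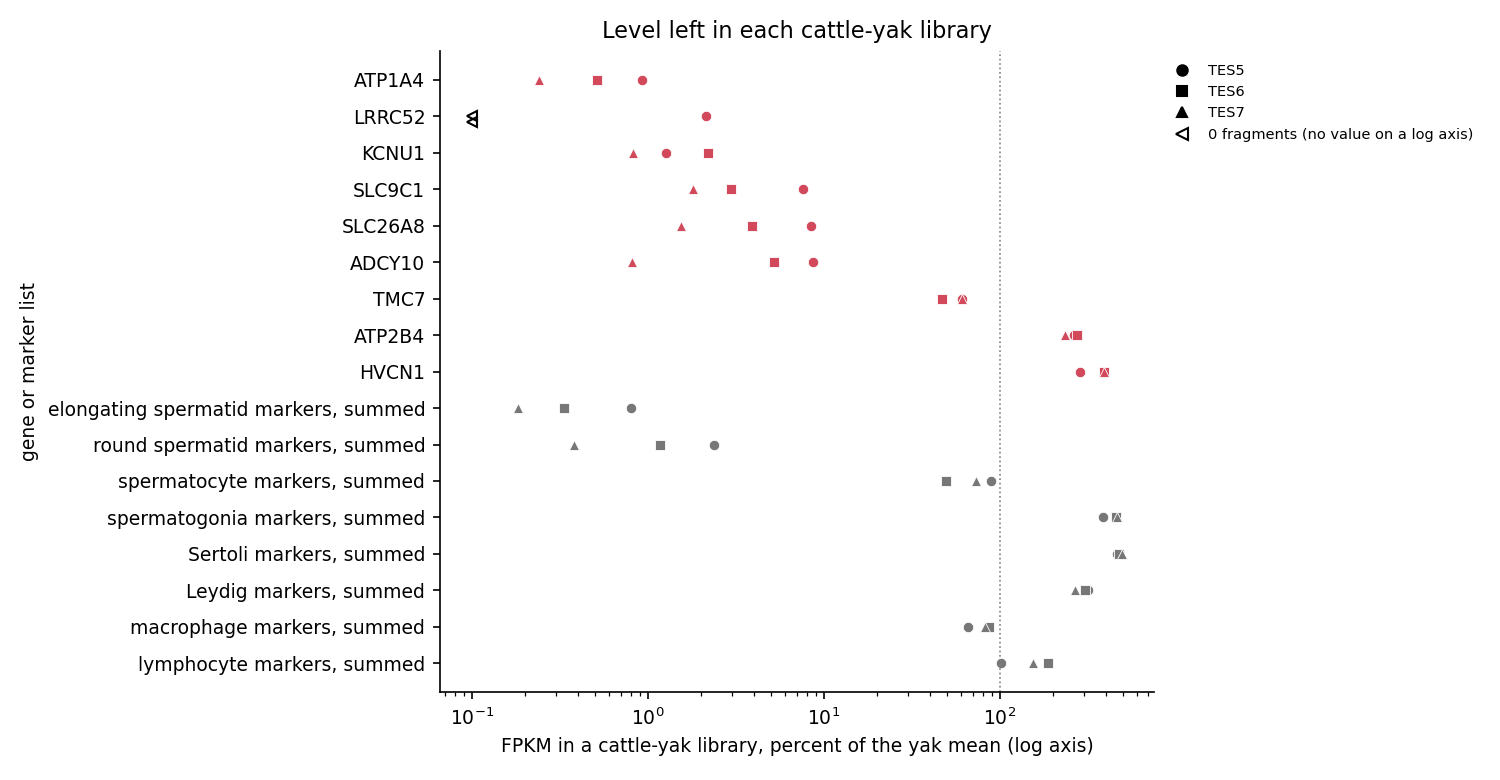
Points give the FPKM of each cattle-yak library as a percent of the yak mean on a log axis, in red for the 9 genes and in grey for summed marker lists, with open triangles for LRRC52 in the libraries with 0 fragments. The 6 genes called lower lie between 0.239% and 8.62% where a value could be drawn, TMC7 lies between 47.1% and 60.7%, and HVCN1 and ATP2B4 lie above 100% as deposited, which Sertoli centring turns.

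In yak the order of the mean levels was SLC26A8, ATP1A4, TMC7, SLC9C1, KCNU1, ADCY10, ATP2B4, LRRC52 and HVCN1. The ranges of SLC26A8, ATP1A4 and TMC7 overlapped, as did those of SLC9C1 and KCNU1, and the other neighbours were separate. In cattle-yak the order was TMC7, ATP2B4, SLC26A8, HVCN1, SLC9C1, ATP1A4, ADCY10, KCNU1 and LRRC52. There SLC26A8 and HVCN1 overlapped, as did all neighbours from SLC9C1 to KCNU1.

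By the deposited annotation 8 of the 9 genes carried a GO term with the word sperm or reproductive, which 3.28% of the tested genes carried, and TMC7 carried none. Since the genes were picked for such roles, this share is no result. The term flagellated sperm motility was shared by SLC9C1, SLC26A8, ATP1A4 and ATP2B4. Of the 44 tested genes with this term 31 were called lower and 2 higher, beside 20.8% and 33.4% of all tested genes. ATP2B4 was among the 2 called higher, a call that was lost with median-of-ratios size factors.

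For each gene the tested gene with the most similar log2(FPKM + 1) over the 6 libraries was found by Euclidean distance. These were EFCAB3 for ADCY10, TMEM217 for SLC26A8, Hoxa11 (as the table names it) for SLC9C1, CA6 for KCNU1, FAM83E for LRRC52, C22orf46 for ATP1A4, MED22 for ATP2B4, ANTXR2 for HVCN1 and Ube2k for TMC7. The distance was between 0.129 for LRRC52 and 0.408 for ADCY10. CA6, with 0.298, 0.506 and 0.0609 FPKM in TES5, TES6 and TES7 and 19.1, 15.8 and 17.99 FPKM in Yak8, Yak9 and Yak10, shared with KCNU1 the highest cattle-yak value in TES6 and the lowest yak value in Yak9. EFCAB3, TMEM217 and ANTXR2 each stand on 2 rows of the table, so their values are uncertain.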

How the data were processed

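Testis RNA of 3 cattle-yak and 3 yak had been sequenced, and animals were grouped by the sample labels. Per the study's methods, the authors trimmed stranded paired-end reads with Trimmomatic, mapped both groups to the yak genome LU_Bosgru_v3.0 with HISAT2, computed FPKM with Cufflinks and counted reads with HTSeq. The FPKM values deposited by the authors are per gene length and per library depth, with no scaling between libraries. Versions are not given in the sources used here, and which tool gave these FPKM is uncertain. 

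The ratios between FPKM of a gene in different libraries gave back its whole fragments and length for 17973 genes. A solution was kept only if its values lay within 0.03 fragments of a whole number, so this closeness is no check. On simulated counts, 98.39% of 17604 genes were recovered exactly. At this depth 1 fragment on 1 kb is 0.0761 to 0.0895 FPKM. The groups were compared by limma (version 3.58.1, R 4.3.3) after a log2(FPKM + 1) transformation of genes averaging 0.5 FPKM or more (variance trend, two-sided, Benjamini-Hochberg over all 15042 genes). The p-values measure the spread between animals. Shares within a family and the ratio of HVCN1 to PTPRC were compared by exact permutation of the animals (10 splits), using Python 3.11.15 and scipy 1.17.1. The most abundant row of a symbol was used. The scripts were tested on simulated data.

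Alternatives were a pseudocount of 0.1, no minimum and a minimum mean FPKM of 5, median-of-ratios size factors, TPM, centring on the Sertoli markers, no variance trend, voom in limma on the recovered fragments, and leaving out each animal. The genes and the lists of relatives, partners and markers were chosen with earlier results of these data known. Genes outside the 9 were named by rule: the most abundant gene of each list, the 2 highest and 2 lowest fold changes over the lists, relatives called in the opposite direction, and the nearest gene by distance. SLC9C2, KCNMB1, KCNMB2, KCNMB4, ADCY1, SLC26A6, TMC4, TMC5, PTPRC, CD79A, CD79B, CD3D, AIF1 and CD14 were named after their values were seen. Some genes that this rule would name are not reported here. Promoter and protein sequences were not analysed here.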

Additional observations from a re-analysis of the deposited data

How the results depend on the processing

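Fold changes of the 9 genes were recomputed under 14 alternatives, which gave 124 values, since HVCN1 and LRRC52 could not be tested at a minimum mean FPKM of 5. Direction and call were kept in 118 of them. The number of genes called lower was 5 to 7 throughout and 6 when any animal was left out. The number called higher was 1 with a minimum of 5, which drops HVCN1, and 0 with median-of-ratios size factors. It was 0 with Sertoli centring, where HVCN1 (−0.86) and ATP2B4 (−0.89) changed sign. Sertoli centring was run only with an added 1, which makes the rise of the weakly expressed HVCN1 too small. Without centring HVCN1 was 1.32 with an added 1, 1.85 with a pseudocount of 0.1 and 1.91 with voom. Adjusted p over the alternatives was 0.00078 to 0.0086 for HVCN1, 8.7e-06 to 0.0024 for ATP2B4 and 2.8e-07 to 0.0033 for TMC7, which was called lower with median-of-ratios size factors (−1.44) and Sertoli centring (−3.01). The median log2 fold change of the 9 genes moved from −3.07 to −4.69 with a pseudocount of 0.1, −4.82 with voom, −3.78 with the minimum of 5 (fewer genes) and −5.25 with Sertoli centring, and lay between −3.27 and −2.83 without any 1 animal. Of the pathway genes, 67 of 92 tested were called lower and 0 higher with Sertoli centring. That is close to the share of all tested genes, 72.1% lower and 0.239% higher. The shares within families kept their direction under every alternative run. The median level left, 4.63%, was 2.70% without TES5 and 6.17% without TES7. No paired analysis was possible because the groups compared share no replicate number. Depth limits LRRC52 most, at 2 fragments in cattle-yak.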
